A study of Mus musculus with 4 samples.

Results

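The 8 genes described here are those used to recognise mural cells, and their chromatin was read in ATAC-seq peak lists from 4 mouse glioblastoma (GBM) tumors, 2 grown in Esm1 KO hosts and 2 in WT hosts. They are Rgs5, Acta2, Tagln, Myh11, Abcc9, Des, Anpep and Cnn1, 8 of 22028 protein-coding genes in the GENCODE M21 annotation, and they were chosen by name as pericyte and smooth muscle genes, not for their values. For each library, peaks were taken over the promoter, within 1000 bp of any annotated transcript start, and over the gene body with flanks of 20 kb. All 4 tumors arose from the same murine line, mG7080, which came from tumors of genetically altered mice and was placed in the brains of C57BL/6 hosts, of substrain C57BL/6J by the methods. By the labels the groups differ in the host genotype: Esm1 KO hosts carry no functional gene for Endocan, a proteoglycan that endothelial cells secrete, and WT hosts carry it. The tumor cells were thus not edited at Esm1, only 1 line was studied, and the hosts were young adults, for whose age the study's methods and its reporting form give ranges that differ. The labels call the material tumor tissue while the methods speak of freshly isolated tumor cells, and no sort of tumor from host cells before the assay is described. The study's results name the cells by the terms used there for sphere cultures grown from these tumors, which would be expected to hold few or no mural cells, and which material entered the libraries cannot be told from these sources.

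Mural cells are the pericytes of capillaries and the smooth muscle cells of arterioles and venules, which wrap the endothelium, set vessel tone and steady new vessels. Endothelial PDGF-B draws them in through the receptor PDGFR-beta, and a contractile program led by serum response factor (SRF) and its cofactor myocardin switches on the actin, myosin and calponin genes of smooth muscle through CArG boxes. ATAC-seq marks open chromatin, because the Tn5 transposase inserts sequencing adapters where DNA is free of nucleosomes, and in a bulk tumor sample a cell type of few cells adds little to a peak.

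Where these genes had a promoter peak it was low beside other promoters, and only Rgs5 and Des had one in every tumor. A promoter peak was present for 3 and 4 of the 8 genes in KO replicates 1 and 2, against 3 and 5 in WT replicates 1 and 2. Over all protein-coding genes the shares with a promoter peak were 64.8 and 66.7% in the KO tumors and 63.6 and 66% in the WT tumors. Open in all 4 libraries were thus 2 of 8 genes beside 62.1% of all genes. Myh11, Anpep and Cnn1 had none in any library, which is 3 of 8 beside 31.2% of all genes. Acta2, Tagln and Abcc9 had one in some libraries of each group. No member was open in both KO and neither WT tumor, a pattern that 0.409% of the 15153 genes with any promoter peak showed, and no member had the reverse, beside 0.211%. No test was made over the 8 genes. When only peaks with −log10 q of at least 5 were kept, 2 and 3 members had a promoter peak in KO and 0 and 4 in WT, and 0 were open in all 4 libraries. In bulk samples, fewer mural cells and less open chromatin per mural cell cannot be told apart.

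The deletion of Esm1 is in the host and not in the implanted line, so these peak lists were not used to check the KO labels. The libraries differed in depth, and WT replicate 1 was the shallowest. The peak lists held 82975 and 85418 peaks in the KO tumors and 63000 and 100088 in the WT tumors. Peak heights, the number of read ends stacked at the highest point of a peak, were recovered from the deposited fold and p-value, and each was set against the lowest background of its own library, called genome background here, 6.03 and 6.71 read ends in KO and 4.41 and 6.85 in WT. The lowest height called lay between 2.34 and 2.94 times background, so a site below that level cannot be told from closed chromatin. Members open in all 4 libraries are compared by a limma fit over all promoters. Its variance is moderated toward a trend with height, so its p-values do not rest on the 2 tumors of a group alone. In the like fit over regions the variance came from the trend only, so a region's SE does not measure the spread between its tumors. A single value set alone between 2 and 2 tumors cannot give a two-sided exact permutation p below 0.333.

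**Figure D1:**
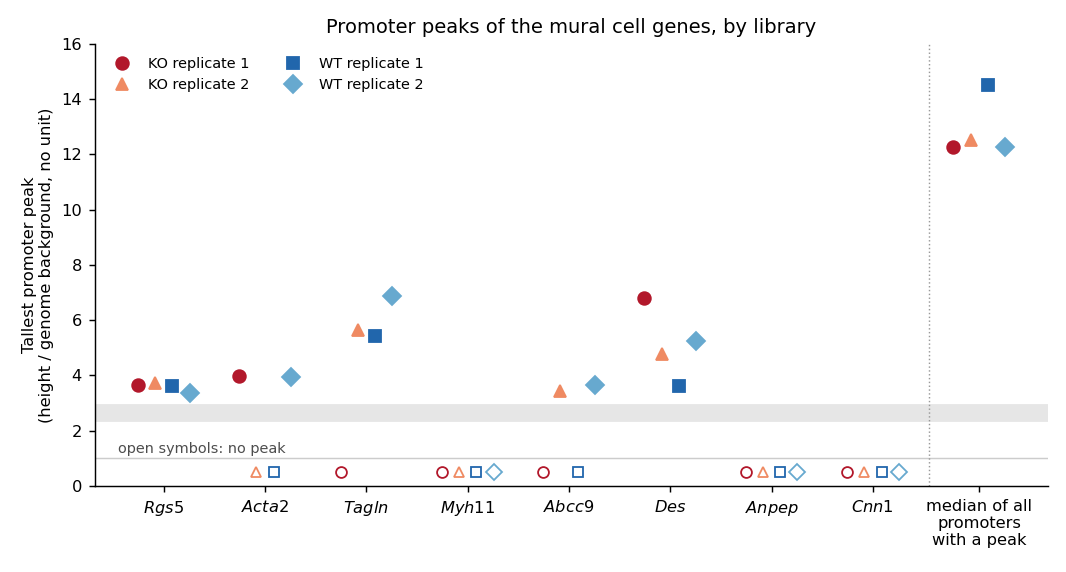
Height of the tallest promoter peak of each mural cell gene, in multiples of the genome background of its library, for KO replicates 1 and 2 and WT replicates 1 and 2; open symbols near the axis mark libraries with no peak, the grey band the range of the lowest heights called (2.34 to 2.94), and the last column the median over all promoters with a peak. Every member peak lies at 6.86 or below, while the medians of all promoters lie between 12.3 and 14.5.

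Rgs5, a regulator of G-protein signaling and among the most specific pericyte transcripts, was the only member whose promoter peak covered its start in all 4 libraries. The gene spans chr1:169655501-169695813 on the plus strand of mm10. Its promoter is shown because it is the only one of the set that was open at the start itself in every tumor. The sequence is that of RefSeq on GRCm38.p6 (chr1:169655251-169655550, plus strand), 250 bases before to 50 after the RefSeq start, 5′ to 3′. Capitals in the promoters and peak sequences printed here mark CArG-like matches, a CArG box in which 1 base of the A/T core may be C or G, a loosening chosen after the data were seen. Rgs5 has none.

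Rgs5 promoter: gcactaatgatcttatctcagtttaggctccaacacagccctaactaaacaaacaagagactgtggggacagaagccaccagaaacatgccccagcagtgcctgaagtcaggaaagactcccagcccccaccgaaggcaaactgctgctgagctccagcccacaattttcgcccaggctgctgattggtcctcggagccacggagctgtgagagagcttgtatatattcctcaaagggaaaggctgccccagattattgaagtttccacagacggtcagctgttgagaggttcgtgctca

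The Rgs5 promoter peak reached 22 and 25 read ends in the KO tumors and 16 and 23 in the WT tumors. That is 3.65 and 3.72 times background in KO, against 3.62 and 3.36 in WT. All 4 values stand close to the lowest height that could be called, and on this scale both KO values lie just above both WT values. The summits sat at -41 and -31 bp from the start in KO and at -63 and -156 bp in WT. Among promoters with a peak, Rgs5 ranked at percentile 2.35 and 2.82 in KO and at 0.350 and 1.95 in WT. The log2 height difference, KO minus WT, was 0.19 (SE 0.31, 95% interval -0.43 to 0.80), with an adjusted p of 0.998 by limma. The 95% intervals printed here use a normal multiple of the SE. For promoters they are somewhat narrower than the t distribution of the test would give. The peaks were therefore among the lowest promoter peaks in each library, and the interval leaves room for a change of either sign. Inside the gene, an intron region at chr1:169670732-169671132 had 20 read ends in KO replicate 2 and 22 in WT replicate 2, and another at chr1:169675112-169675517 had 24 in WT replicate 2 alone.

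Des encodes desmin, the intermediate filament of muscle and of many pericytes. It spans chr1:75360329-75368579 on the plus strand, and its promoter peak, present in all 4 libraries, lay upstream of the start and did not reach it. The 300-base promoter of the gene and the 201 bases around the summit of the upstream peak are shown together because only the second lay in open chromatin. The first is from RefSeq (chr1:75360042-75360341, plus strand), and the second was read from GRCm38.p6 (chr1:75359454-75359654, plus strand).

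Des promoter: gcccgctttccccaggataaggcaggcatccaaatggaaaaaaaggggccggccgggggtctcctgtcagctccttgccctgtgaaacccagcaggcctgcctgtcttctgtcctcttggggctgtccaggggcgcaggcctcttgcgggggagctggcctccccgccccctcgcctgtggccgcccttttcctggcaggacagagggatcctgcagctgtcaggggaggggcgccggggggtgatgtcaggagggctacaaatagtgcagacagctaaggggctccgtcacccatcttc

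Des upstream peak: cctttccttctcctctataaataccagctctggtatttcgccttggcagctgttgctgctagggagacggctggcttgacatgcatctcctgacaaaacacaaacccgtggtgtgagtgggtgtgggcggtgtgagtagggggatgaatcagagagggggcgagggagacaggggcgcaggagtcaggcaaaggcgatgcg

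The promoter sequence holds no CArG-like match. It has 2 copies of GGGCGG, a sequence that Sp-family factors bind, while the upstream peak has 1 copy, along with 1 TATAAA as in the box bound by the general transcription machinery. The upstream peak reached 41 and 32 read ends in the KO tumors and 16 and 36 in the WT tumors. Relative to background these were 6.80 and 4.77 in KO, and 3.62 and 5.26 in WT. WT replicate 1 was the lowest of the 4, and WT replicate 2 lay between the KO tumors, so the groups overlapped. Summits were at -789 and -760 bp in KO and at -884 and -716 bp in WT. The log2 difference was 0.49 (SE 0.32, 95% interval -0.14 to 1.12, adjusted p = 0.998 by limma), and it ranged between 0.12 and 0.87 when each library was left out in turn. A further peak over a coding exon, at chr1:75360664-75360892, was called in KO replicate 1 alone with 24 read ends.

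Further out, near Des, lay the only strict CArG box found within the 201 bases around the summits of the 39 open regions, whose remaining sequence was not searched. The region lies between genes at chr1:75342823-75343216, with its summit at -17.3 kb from the Des start, and the 201 bases around that summit (chr1:75342896-75343096, plus strand, GRCm38.p6) are shown for that match.

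Des distal region: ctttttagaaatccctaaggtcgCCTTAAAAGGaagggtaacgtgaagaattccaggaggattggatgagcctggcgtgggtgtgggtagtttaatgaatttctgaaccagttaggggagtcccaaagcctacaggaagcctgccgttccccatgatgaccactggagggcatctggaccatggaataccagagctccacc

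The match starts at -77 bases from the summit. This region had 31 and 36 read ends in KO and 25 and 34 in WT, or 5.14 and 5.36 times background in KO and 5.66 and 4.96 in WT. The KO values lay between those of the WT tumors, and the log2 difference was 0.08 (SE 0.27, adjusted p = 1.00 by limma). A CArG box was present at 1.07% of the 122097 region summits genome-wide that could be read, so 1 among 39 is a description only. On the other side, 5 regions lay over the promoters of Speg, a kinase gene of striated and smooth muscle, of which 1 was found in all 4 libraries, with 54 and 65 read ends in KO and 45 and 62 in WT.

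Acta2 encodes smooth muscle alpha-actin, the classic marker of smooth muscle and of contractile pericytes. It spans chr19:34241090-34255590 on the minus strand. A promoter peak was called in 1 KO and 1 WT tumor, and it did not lie at the 5′ end of the gene but in an intron, beside the start of a shorter transcript at position 34254230. The promoter at the 5′ end and the intron peak are both shown, because the CArG-like matches and the open chromatin were in different ones. The first is from RefSeq (chr19:34255324-34255623, minus strand) and the second from GRCm38.p6 (chr19:34254342-34254542, minus strand).

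Acta2 promoter: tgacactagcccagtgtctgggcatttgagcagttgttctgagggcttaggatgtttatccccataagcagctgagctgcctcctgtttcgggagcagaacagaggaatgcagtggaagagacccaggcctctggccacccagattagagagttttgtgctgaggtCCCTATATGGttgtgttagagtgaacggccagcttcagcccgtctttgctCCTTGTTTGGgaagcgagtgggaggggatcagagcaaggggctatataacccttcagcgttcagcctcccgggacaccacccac

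Acta2 intron peak: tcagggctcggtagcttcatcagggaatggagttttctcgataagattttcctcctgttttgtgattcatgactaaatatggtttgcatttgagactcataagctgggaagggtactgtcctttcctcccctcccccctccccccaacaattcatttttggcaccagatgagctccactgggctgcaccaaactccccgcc

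The 2 CArG-like matches of the Acta2 promoter begin at -84 and -34 from the RefSeq start. No peak overlapped this window in any library. The nearest peak was 582 bp away in KO replicate 1 and 460 bp in WT replicate 2, where it was the intron peak, and 10930 bp away in KO replicate 2 and 10973 bp in WT replicate 1. The intron peak reached 24 read ends in KO replicate 1 and 27 in WT replicate 2, or 3.98 and 3.94 times background. It was thus as tall in the KO as in the WT tumor that had it. Deeper in the gene, an intron region at chr19:34243673-34244488 was open in all 4 libraries, with 26 and 38 read ends in KO and 17 and 30 in WT. Its log2 difference was 0.36 (SE 0.26, adjusted p = 1.00 by limma), and the groups overlapped at 4.32 and 5.66 times background in KO and 3.85 and 4.38 in WT. KO replicate 1 alone had 2 further regions, 1 in an intron and 1 in the flank, with 23 read ends each.

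Tagln encodes transgelin, or SM22-alpha, an actin-binding protein that appears early in smooth muscle differentiation. It spans chr9:45929619-45936058 on the minus strand. Its promoter peak, at chr9:45936748-45937294, was found in KO replicate 2 with 38 read ends and in both WT tumors with 24 and 47, and none was called in KO replicate 1. Relative to background these heights were 5.66 in KO replicate 2, against 5.44 and 6.86 in the WT tumors. The summits lay at -1122 bp in KO replicate 2 and at -983 bp in both WT tumors, so the KO summit lay outside the 1000 bp window although the peak overlapped it. Counted by summits, Tagln was open in both WT and neither KO tumor, the only WT-only promoter of the 8 genes under that rule, and the same call came without KO replicate 2. The local background there was 2.05 times the genome background in KO replicate 2 and 1.77 and 2.10 times in the WT tumors. A peak in an intron of the gene, at chr9:45932969-45933447, had 41 read ends in each KO tumor, none in WT replicate 1 and 57 in WT replicate 2.

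Most of the open chromatin near Tagln belonged to its neighbours. The promoter of Sidt2, a lysosomal nucleic acid transporter gene, had 82 and 95 read ends in KO and 68 and 87 in WT. A region over a promoter of Pcsk7, a proprotein convertase gene, at chr9:45917425-45918010, had 30 and 69 read ends in KO and 21 and 27 in WT. At 4.98 and 10.3 times background in KO and 4.76 and 3.94 in WT, both KO values lay above both WT values, with KO replicate 2 far the highest. Its log2 difference of 0.82 (SE 0.27, unadjusted p = 0.00254) was the largest of the regions open in all 4 libraries around these genes, and it did not pass after adjustment over all regions (adjusted p = 0.828 by limma). The other Pcsk7 region, at chr9:45915601-45916187 in an intron, had 49 and 54 read ends in KO and 20 and 49 in WT, with a log2 difference of 0.60 (SE 0.26, adjusted p = 1.00 by limma).

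Myh11, the smooth muscle myosin heavy chain and the most restricted marker of mature smooth muscle, spans chr16:14194535-14291372 on the minus strand. No promoter peak was called in any library. The nearest was a peak of 26 read ends in KO replicate 2 at chr16:14292416-14292615, just outside the window, with its summit at -1.13 kb. An intron region at chr16:14237277-14237660 was open in all 4 libraries, with 25 and 30 read ends in KO and 19 and 25 in WT. On the background scale these were 4.15 and 4.47 in KO and 4.30 and 3.65 in WT, so the groups overlapped, and the log2 difference was 0.21 (SE 0.26, adjusted p = 1.00 by limma). A further upstream region at chr16:14296681-14297523 had 26 and 38 read ends in KO, none in WT replicate 1 and 33 in WT replicate 2.

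Cnn1 encodes calponin, which binds actin and dampens myosin ATPase in smooth muscle, and spans chr9:22099216-22109630 on the plus strand. It too had no promoter peak. Its promoter is shown because no peak overlapped it in any tumor, although a region further upstream was open in all 4 libraries. The sequence is from RefSeq (chr9:22099003-22099302, plus strand).

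Cnn1 promoter: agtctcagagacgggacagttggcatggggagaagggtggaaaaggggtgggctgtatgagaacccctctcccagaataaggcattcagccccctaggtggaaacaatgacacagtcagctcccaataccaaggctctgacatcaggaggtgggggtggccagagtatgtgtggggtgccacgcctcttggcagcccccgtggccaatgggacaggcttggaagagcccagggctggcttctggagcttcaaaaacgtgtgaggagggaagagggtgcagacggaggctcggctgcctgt

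The Cnn1 promoter held no match to any of the motifs searched. The gap from the promoter window to the nearest peak was 2588 and 2618 bp in KO and 2620 and 2606 bp in WT. The upstream region had 25 and 51 read ends in KO and 24 and 45 in WT, or 4.15 and 7.60 times background in KO and 5.44 and 6.57 in WT. The WT values lay between the KO values, and the log2 difference was 0.00 (SE 0.27, 95% interval -0.52 to 0.53, adjusted p = 1.00 by limma). All 4 regions around Cnn1 were open in every library, and the tallest of them lay over the promoters of Ecsit, a signaling and mitochondrial assembly gene, with 91 and 105 read ends in KO and 84 and 105 in WT, and Elof1, a transcription elongation factor gene, with 63 and 79 in KO and 64 and 81 in WT.

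Abcc9 encodes SUR2, the regulatory subunit of the vascular ATP-sensitive potassium channel, and spans chr6:142587862-142702315 on the minus strand. Its promoter peak covered a start in KO replicate 2, with 23 read ends, and in WT replicate 2, with 25, and none was called in the other tumors. These heights were 3.43 times background in KO replicate 2 and 3.65 in WT replicate 2, near the lowest that could be called. Next to Abcc9 lies Kcnj8, which encodes Kir6.1, the pore subunit of the same channel and itself a pericyte marker. The Kcnj8 promoter was open in all 4 libraries, with 30 and 28 read ends in KO and 22 and 32 in WT, and its log2 difference as a region was 0.01 (SE 0.27, adjusted p = 1.00 by limma).

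Abcc9 held the only region around the 8 genes that was open in both KO and neither WT tumor, a pattern of 1.66% of all 122166 merged regions. It covers a coding exon at chr6:142682770-142683176 and had 21 and 24 read ends in the KO tumors, 3.49 and 3.58 times background. The 201 bases around its summit (chr6:142682902-142683102, minus strand, GRCm38.p6) are shown for that reason, and they hold 1 CArG-like match.

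Abcc9 exon region: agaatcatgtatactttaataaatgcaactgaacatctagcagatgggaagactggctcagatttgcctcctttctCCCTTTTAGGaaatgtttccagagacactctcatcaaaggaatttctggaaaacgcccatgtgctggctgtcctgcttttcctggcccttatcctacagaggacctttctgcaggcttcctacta

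The call was lost when only peaks with −log10 q of at least 5 were kept, and when each list was shortened to its 63000 best peaks. A second Abcc9 region, in an intron at chr6:142662259-142662530, was called in KO replicate 2 alone with 24 read ends. Its sequence (chr6:142662274-142662474, minus strand, GRCm38.p6) is shown because it is a tandem repeat.

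Abcc9 intron repeat: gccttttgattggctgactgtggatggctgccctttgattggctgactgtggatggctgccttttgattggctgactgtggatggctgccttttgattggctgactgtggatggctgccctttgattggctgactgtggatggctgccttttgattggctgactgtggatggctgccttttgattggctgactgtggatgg

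Each base of this stretch equals the base 87 positions further on in 100% of the positions that can be compared. Anpep, which encodes aminopeptidase N or CD13, a surface peptidase of pericytes and myeloid cells, had its only region in a stretch of the same kind. The gene spans chr7:79821803-79861059 on the minus strand and had no promoter peak. The repeat lies in an intron (chr7:79828994-79829194, minus strand, GRCm38.p6), and 99.3% of its bases equal the base 54 positions further on.

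Anpep intron repeat: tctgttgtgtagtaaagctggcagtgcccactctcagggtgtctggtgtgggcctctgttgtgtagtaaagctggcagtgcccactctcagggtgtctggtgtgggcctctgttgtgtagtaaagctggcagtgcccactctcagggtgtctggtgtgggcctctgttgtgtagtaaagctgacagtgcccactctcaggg

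The Anpep region had 17 and 24 read ends in KO, none in WT replicate 1 and 21 in WT replicate 2. A repeat of this kind, with at least 90% identity at a shift of 10 to 100 bases, was found at 2 of the 39 region summits around the 8 genes and at 0.295% of all region summits. How reads were placed in such repeats was not tested. The other region around Anpep, over the promoter of Mesp2, a factor of somite segmentation, had 28 read ends in each KO tumor, against 23 and 30 in the WT tumors.

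**Figure D2:**
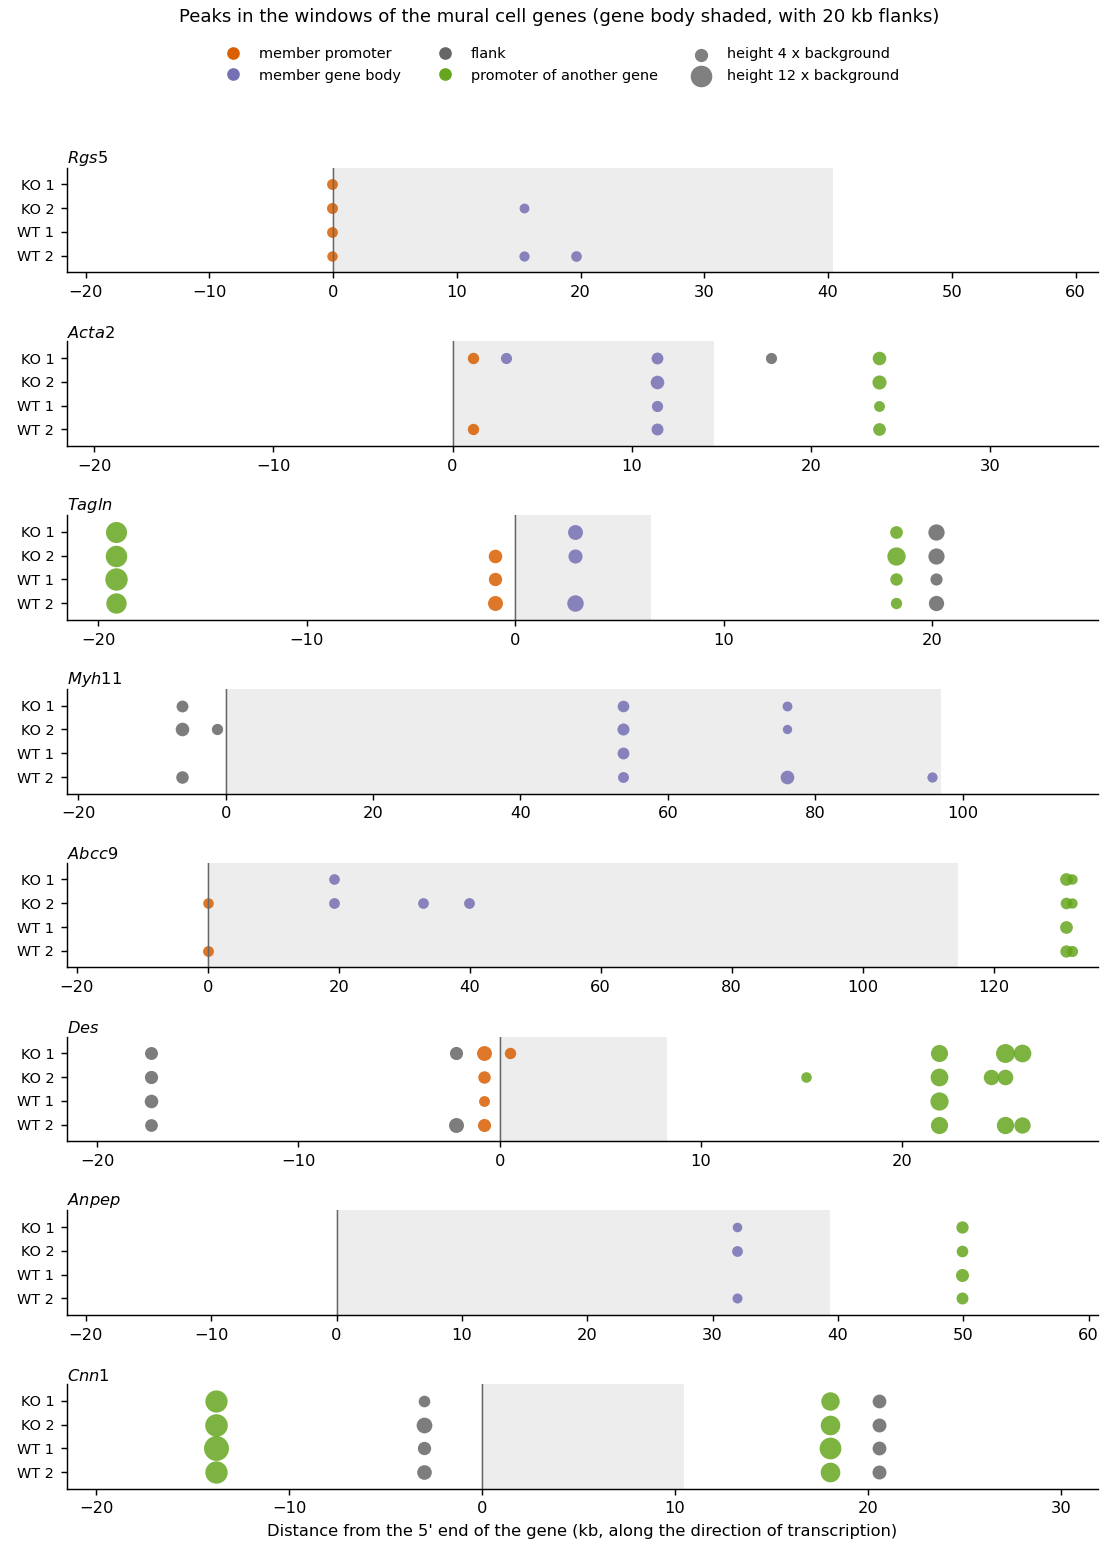
Peaks in the windows of the 8 mural cell genes, by distance in kb from the 5′ end of each gene along the direction of transcription, with a row for each library (KO 1, KO 2, WT 1, WT 2), the gene body shaded and the dot area following the height over background. Colors mark the promoter of the gene, its body, the flank and promoters of other genes; the largest dots, up to 15.6 in KO and 19.0 in WT, lie over promoters of other genes, and the WT 1 rows hold the fewest dots (17 peak regions against 29, 31 and 30).

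Summed over the 8 windows there were 39 open regions. They numbered 29 and 31 in the KO tumors and 17 and 30 in the WT tumors, 0.0350 and 0.0363% of the KO peak lists and 0.0270 and 0.0300% of the WT lists. Of the 39, 16 (41.0%) were found in all 4 libraries, beside 39.4% of all merged regions. 1 was KO-only and 0 were WT-only, beside 1.66 and 1.45% of all regions. With 1 tumor left to stand for its group these counts moved, to 6 KO-only without KO replicate 1, 4 KO-only and 1 WT-only without KO replicate 2, 2 WT-only without WT replicate 1 and 7 KO-only without WT replicate 2. WT replicate 1, the shallowest library, lacked 22 of the 39 regions, and 6 of the 7 regions found in 3 libraries were missing there. The part of depth in its low number was not tested.

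Of these regions, 13 lay over the promoters of other genes and 8 in flanks, and only 18 lay over the promoter or in the body of a member. Those 18 numbered 11 and 13 in KO and 5 and 13 in WT. The tallest of them stood at 6.80 and 6.11 times background in KO and at 5.44 and 8.32 in WT, while the tallest over a neighbour's promoter stood at 15.1 and 15.6 in KO and 19.0 and 15.3 in WT. The strongest open chromatin in these windows was thus at neighbouring genes in all 4 tumors. The median over members was 5.23 and 3.78 peaks per 100 kb in KO and 2.47 and 4.62 in WT, beside 4.67 and 4.86 in KO and 3.86 and 5.54 in WT over all genes.

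**Figure D3:**
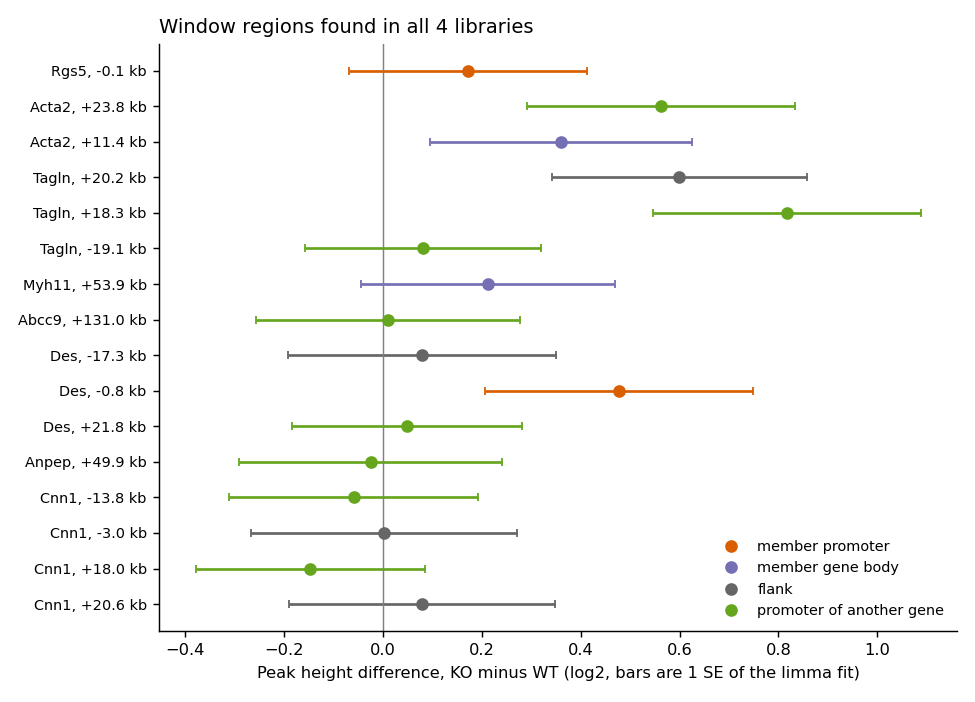
Log2 difference in peak height, KO minus WT, for the 16 window regions found in all 4 libraries, each named by its gene and the distance of its summit from the 5′ end in kb; points are limma estimates, bars 1 SE, and colors give the place as promoter of the gene, gene body, flank or promoter of another gene. Estimates run between -0.15 and 0.82 with a median of 0.08, and none passed the adjusted threshold.

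After adjustment over all regions or promoters, no height difference between the groups was called, which does not show that the heights were equal. None of the 16 regions and neither of the 2 promoters passed an adjusted p of 0.05 by limma, whose fits called 0.0395% of 48089 regions, 0.0374% as higher and 0.00208% as lower in KO, and 0.0146% of 13678 promoters, all as higher in KO. At an unadjusted p under 0.05 there were 3 of the 16 regions, all with a positive difference, and 0 of the 2 promoters, beside 3.08% of all regions and 3.83% of all promoters. These 3 are the Pcsk7 regions near Tagln and a region over the promoter of Stambpl1, a deubiquitinase gene next to Acta2, with 34 and 41 read ends in KO and 16 and 34 in WT (log2 difference 0.56, SE 0.27, adjusted p = 1.00 by limma). On the background scale WT replicate 1 was the lowest library in the Stambpl1 region and in the Pcsk7 intron region, and WT replicate 2 in the Pcsk7 promoter region. The Elof1 region near Cnn1 went the other way, with both KO values (10.46 and 11.77) below both WT values (14.50 and 11.83). How often the groups do not overlap over all regions was not counted.

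The promoter sequences of the members were searched for a set of motifs and were not compared with one another. RefSeq promoters of 300 bases were matched for 6 of the 8 genes (Rgs5, Acta2, Abcc9, Des, Anpep and Cnn1). The CArG box was found in 0 of 6, beside 1.63% of 32851 promoters, and the CArG-like form in 1 of 6, Acta2, beside 9.98%. CATTCC, the MCAT element of TEAD factors, was in 2 of 6 (14.7% of all), TGGGAA, bound by the Notch factor RBPJ, in 2 of 6 (25.6%), TATAAA in 0 of 6 (13.6%) and GGGCGG in 3 of 6 (35.7%), all searched on both strands. Their GC content had a median of 62.3%, beside 52.7% over all promoters. Around the summits, 9 of 39 windows of 201 bases held a CArG-like match, beside 6.33% of all region summits. Of the 18 within a member's promoter or body, 2 did (11.1%). These shares were not tested, and the loosened form was chosen after the data were seen.

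The wider mural program was read from 4 lists of 16 genes, 64 in all, none of them among the 8 members. A promoter peak was found for 43 and 49 of the 64 genes in KO and 38 and 46 in WT, beside 64.8 and 66.7% of all genes in KO and 63.6 and 66% in WT. There were 36 open in all 4 libraries and 10 in none, beside 62.1 and 31.2% of all genes. The pericyte surface, channel and secreted genes had 9 and 10 of 16 open in KO and 7 and 11 in WT. Pdgfrb, the receptor that brings pericytes to vessels, had a promoter peak in WT replicate 2 alone with 22 read ends, and Cspg4, the NG2 proteoglycan, likewise with 28. Notch3, the Notch receptor of arterial mural cells, had one in KO replicate 2 alone with 31, and Mcam, an adhesion molecule of the vessel wall, had 20 and 38 in KO, none in WT replicate 1 and 24 in WT replicate 2. Among these named pericyte genes, none split the tumors by host genotype.

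The smooth muscle contractile and cytoskeletal genes had 11 open promoters in each KO tumor and 10 and 12 in WT. Myl9, the regulatory light chain of smooth muscle myosin, had 22 and 36 read ends in KO, none in WT replicate 1 and 28 in WT replicate 2, and Pln, the phospholamban gene, had 26 in WT replicate 2 alone. The transcription factors and cofactors had 14 and 15 open in KO and 12 in each WT tumor. Srf and its cofactor gene Myocd, named after their values were seen, were open in all 4, with 126 and 133 read ends in KO and 104 and 137 in WT for Srf, and 22 and 24 in KO and 19 and 32 in WT for Myocd. The promoter of Srf was thus far taller than that of Myocd. On the background scale Myocd stood at 3.65 and 3.58 in KO and at 4.30 and 4.67 in WT. The lowest heights called were 2.34 to 2.94.

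Tbx2, a T-box repressor, was the only KO-only promoter of the 64, a call held by 0.409% of the genes with any promoter peak, with 27 and 81 read ends in KO and none in WT. Its height in KO replicate 2 was 12.1 times background, against 4.48 in KO replicate 1. With −log10 q of at least 5, or with lists shortened to 63000 peaks each, Tbx2 was open in KO replicate 2 alone. Of the other factors open in some libraries, Foxs1, a forkhead gene of pericytes, had 27 read ends in KO replicate 2 alone. Foxf2, a forkhead gene of brain pericytes, had 21 and 31 in KO, none in WT replicate 1 and 28 in WT replicate 2, and Zic1, a zinc finger gene, had 23 and 30 in KO, 26 in WT replicate 1 and none in WT replicate 2. No factor named here other than Tbx2 split the tumors by host genotype. Among the ligands and receptors of mural recruitment, 9 and 13 of 16 were open in KO and 9 and 11 in WT. Pdgfd, a PDGF ligand, Acvrl1 and Eng, a receptor and a co-receptor of the TGF-beta family, were open in KO replicate 2 alone, with 41, 27 and 22 read ends. Tgfb1 was open in KO replicate 2 with 39 and in WT replicate 2 with 26, the same libraries as Abcc9, and Angpt2, an angiopoietin gene, matched Tagln in the same way. None of the 64 genes shared the pattern of Acta2. Over all protein-coding genes, 0.518% had the pattern of Abcc9, 0.381% that of Tagln and 0.377% that of Acta2. With shares this low, so few matches among 64 genes are a description only.

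By limma, 0 of the 36 list promoters open in all 4 libraries passed, beside 0.0146% of all 13678 promoters tested. Their median log2 difference was 0.00. An unadjusted p under 0.05 was found for 3 of the 36, beside 3.83% of all promoters. These were Foxc1 (log2 difference 0.71, SE 0.25), S1pr1 (0.72, SE 0.30) and S1pr2 (0.79, SE 0.31), each with an adjusted p of 0.998, named here because the count is small. Foxc1 is a forkhead factor of the vessel wall, and the S1pr genes encode receptors for sphingosine 1-phosphate. In all 3, KO replicate 2 had the tallest peak, with 61, 77 and 85 read ends.

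**Figure D4:**
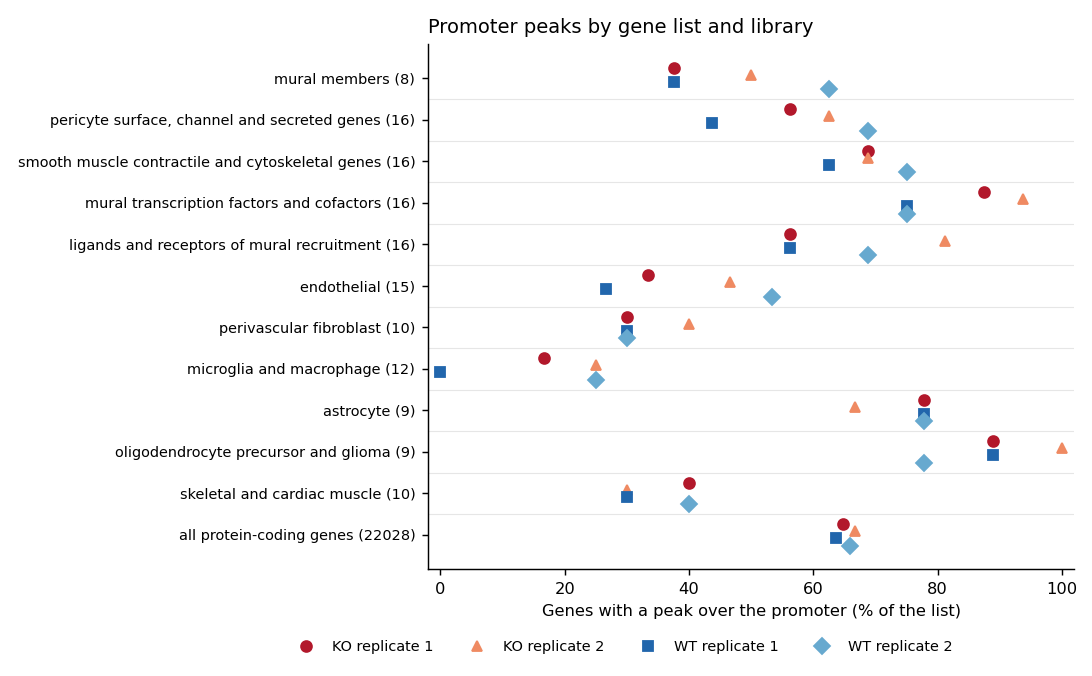
Share of each gene list (its number of genes in parentheses) with a promoter peak, in percent, for KO replicates 1 and 2 and WT replicates 1 and 2, with all protein-coding genes in the bottom row. The mural members (3 and 4 of 8 in KO, 3 and 5 in WT) lie to the left of the mural transcription factor list in every library, and near the endothelial list.

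Markers of the other cell types that the samples could hold were read the same way. Endothelial genes had an open promoter for 5 and 7 of 15 in KO and 4 and 8 in WT, with a summed height of 30.04 and 38.3 times background in KO and 29.9 and 38.4 in WT. Kdr, Esam, Egfl7 and Ocln were open in all 4 libraries and Vwf in 3. Flt1 was open in replicate 2 of each group, Erg in KO replicate 2 alone, and Cldn5 and Sox17 in WT replicate 2 alone. Pecam1, Cdh5, Tie1, Emcn, Slco1a4 and Robo4 were open in none. Microglia and macrophage genes had 2 and 3 of 12 in KO and 0 and 3 in WT (summed height 12.9 and 13.3 in KO, 0 and 18.1 in WT), with Aif1 open in both KO tumors and WT replicate 2, Cd68 and Trem2 in 1 tumor of each group, Tmem119 in KO replicate 2, and the other 8, Csf1r, Cx3cr1 and P2ry12 among them, in none. Perivascular fibroblast genes had 3 and 4 of 10 in KO and 3 in each WT tumor. Oligodendrocyte precursor and glioma genes had 8 and 9 of 9 in KO and 8 and 7 in WT, astrocyte genes 7 and 6 of 9 in KO and 7 in each WT tumor, and skeletal and cardiac muscle genes 4 and 3 of 10 in KO and 3 and 4 in WT. Summed over the 8 mural members the heights were 14.4 and 17.6 in KO and 12.7 and 23.1 in WT. In all 4 libraries 7 of 9 glioma lineage, 6 of 9 astrocyte, 4 of 15 endothelial and 0 of 12 microglia and macrophage genes were open. So were 3 of 10 perivascular fibroblast, 3 of 10 skeletal and cardiac muscle and 2 of 8 mural genes, beside 62.1% of all protein-coding genes. Whether the amount of any of these cells bears on the mural peaks was not tested.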

How the data were processed

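ATAC-seq libraries of 4 mG7080 tumors, 2 from Esm1 KO and 2 from WT hosts, were read from 1 peak list per tumor, so peaks were called per sample. MACS2, HOMER and mm10 are named, without versions, in the submitters' processing notes. The study's methods instead describe Trimmomatic, Bowtie2 on GRCm38.p6, removal of mitochondrial and duplicate reads and Genrich, and a reporting form adds Picard and DiffBind. The columns follow MACS2, and no source used here says whether reads were shifted for Tn5. The authors deposited, for every peak, the fold of its summit against nearby background (a ratio), its −log10 p-value, its −log10 q-value and a display score.

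The files hold no read counts. Peak heights in whole read ends were recovered from the deposited fold and −log10 p, which fit a Poisson tail within 0.001 for all but 2 of 331481 peaks, and the lowest background of a library was taken as its genome background. The heights cover counting at the summit only, and their number limits precision. Peaks that overlapped by 1 bp or more were joined into regions. KO-only means both KO and neither WT tumor, and WT-only the reverse. Promoters used 93609 transcript starts of GENCODE M21.

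Median-centred log2 heights were compared with limma 3.58.1 in R 4.3.3 with a mean-variance trend, adjusting by Benjamini-Hochberg over all promoters or regions open in all 4 libraries; the scripts were tested on simulated data. The named list genes are those KO-only or WT-only, then those past the limma threshold, then those open in some libraries, in list order and at most 4 a list, with exceptions stated. The genes and lists, the tests and the alternatives (peak threshold, equal list lengths, overlap rule, promoter and flank size, scaling, trend, summed heights, height filter, replicate block, each library left out) were chosen with earlier results of these data known. The promoter from 250 bp before to 50 bp after a start was added after the data were seen. Promoter sequences came from the RefSeq table on GRCm38.p6 and summit sequences from that genome.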

Additional observations from a re-analysis of the deposited data

How the results depend on the processing

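The number of members with a promoter peak in all libraries, 2, became 0 when peaks needed a −log10 q of 5 or more, and 1 when all lists had equal length, with promoters of 500 bp and with promoters from 250 bp before to 50 bp after a start. That last window left 5 members with no promoter peak in place of 3. WT-only members numbered 0, and 1 (Tagln) where summits had to lie in the promoter. Leaving out each library gave 2 to 3 members open in all libraries and 0 to 1 WT-only.

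Regions found in all libraries numbered 16, against 9 with −log10 q of at least 5, 8 with flanks of 10 kb and 33 with flanks of 50 kb, which held 75 regions in any library in place of 39, 2 KO-only and 1 WT-only. KO-only regions numbered 0 under the stricter threshold and also with lists of equal length. Leaving out each library gave 1 to 7 KO-only and 0 to 2 WT-only.

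No promoter or region of the members passed the limma threshold under any alternative, and the Rgs5 promoter could not be tested with a mean height of at least 30 read ends. Differences near 0 changed sign without being called. The distal Des region came to -0.014 on the scale of genome background, and to -0.12 to 0.19 with a library left out. The Cnn1 upstream region came to -0.090 with genome background, -0.047 with summed heights, -0.022 with a mean height of at least 30 read ends, and -0.50 to 0.44 with a library left out. The Myh11 intron region came to -0.0065 to 0.35 with a library left out, the lower value without WT replicate 2.

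Over all promoters limma called 2, against 10 with genome background, 0 without a trend and with summed heights, and 1 to 171 with a library left out; over all regions it called 19, against 41 with summed heights and 7 to 70 with a library left out. Replicate numbers pair no tumors by the labels. The difference of replicate 1 minus replicate 2 within KO correlated with that within WT at -0.21 over promoters and -0.34 over regions. With the replicate block, 0 member promoters and 0 member regions passed, and 10 promoters and 10 regions did in all. Read ends at a summit limit these comparisons, and the Rgs5, Acta2 and Abcc9 promoter peaks stand close to the lowest height called.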
